A study of Mus musculus with 6 samples.

Results

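The interferon response genes described here are 41 mouse genes, headed by Irf1, that are known to be switched on by interferons or to carry the interferon signal into the nucleus. They were chosen by name, with earlier results of these data known, and every probe that the array design assigns to one of these names was taken. Of the 41 genes, 40 had a probe under their name, and these genes were represented by 57 of the 55681 probes on the array. No probe carried the name Ifi205. Of the 41 genes, 26 had at least 1 probe bright enough to be tested.

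Interferons are secreted proteins that cells release when they sense viral or bacterial nucleic acids. They bind surface receptors, which signal through JAK kinases to a complex that includes STAT2 and IRF9 and binds interferon-stimulated response elements in the promoters of antiviral genes. IRF1 is a transcription factor that interferon gamma induces and that binds similar elements, and IRF2 binds the same sites and opposes it. In resting cells many of these genes keep a low, tonic level of expression.

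RNA was taken from 1676 cells, a mouse pre-B cell line derived from SLP-65-/- LAT-/- bone marrow, in which both signalling adaptors are deleted in every group including the control. The cells grow as pre-B cells in an excess of IL-7, supplied as supernatant of J558L cells, and all 3 groups were measured with IL-7 present. The control cells carried an empty retroviral vector, the miR-26a cells expressed hsa-miR-26a-2, and the sponge cells expressed a transcript that sequesters the miR-26 family. All were selected with puromycin, and no group was treated with interferon. There were 2 arrays per group, 1 from each of 2 independent experiments. A single cell line was used, and no array of a scrambled sponge was analysed here. The bulk RNA signal of a gene cannot separate fewer expressing cells from less RNA per cell.

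The overexpressed and the sequestered microRNAs share a seed, printed here because it is what the sponge and the overexpression construct have in common. The mature mouse sequences are from RefSeq (GRCm38.p6), 5′ to 3′, with the seed (bases 2 to 8) in capitals.
miR-26a-5p: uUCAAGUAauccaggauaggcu
miR-26b-5p: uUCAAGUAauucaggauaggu
The DNA words that pair with this seed, TACTTGA and ACTTGAA, were in 0 of the 57 probes of the interferon response genes. The probes cover a small stretch of each transcript, and no other stretch was searched.

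Many interferon response genes carry known response elements near their start, and 2 such motifs were sought on both strands of the promoter windows of RefSeq (GRCm38.p6), which run from 250 bases before to 50 bases after each gene start. The core of the interferon-stimulated response element, which is TTTC, any 2 bases and TTTC again, was present in 19 of the 30 interferon response genes that the promoter table lists (63.3%) and in 3.99% of all 27025 genes of that table. It was found in 13 of 20 genes that could be tested and in 6 of 10 that could not. The GAS element, TTCNNNGAA, known from promoters that interferon gamma activates, was present in 9 of the 30 (30%) and in 9.55% of all genes. The letters of the 2 motifs can overlap, and a match describes the sequence without showing that a factor binds. The following stretches of 30 bases, on the strand of the gene with the match in capitals, belong to Irf1 and to genes on which the results below turn. Irf1 is shown with its GAS match and the others with a match to the response element core, which reads GAAA, any 2 bases and GAAA where it lies on the opposite strand.
Irf1, chr11:53769914-53769943, + strand: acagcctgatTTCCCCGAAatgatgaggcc
Ifi203, chr1:173942508-173942537, - strand: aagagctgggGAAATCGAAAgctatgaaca
Oas1a, chr5:120907520-120907549, - strand: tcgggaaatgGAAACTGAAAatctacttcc
Isg15, chr4:156200865-156200894, - strand: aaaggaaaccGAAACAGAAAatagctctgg
Ifit1, chr19:34640775-34640804, + strand: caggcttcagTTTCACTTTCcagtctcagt
The first base of the match lies 90 bases before the gene start in Irf1, 35 in Ifi203, 14 in Oas1a, 66 in Isg15 and 104 in Ifit1. The core in Ifih1 lies 32 bases after the start.

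The arrays were of comparable quality. Of the 59305 spots on an array, 28823 to 29800 were well above background, and 0 were saturated. Replicate arrays correlated at 0.9957 to 0.9974 over the tested probes. Signals are given as log2 of the quantile-normalized processed intensity, which has no absolute unit and is compared only within a probe. All 6 arrays lay on 1 slide. Experiment 1 lay in 1 row of the slide and experiment 2 in the other, and each group lay in a column of its own, so slide column and group cannot be told apart. The 10 pre-B cell markers chosen were well above background on every array, with a summed linear signal of 648516 to 692438 in control, 620882 to 672925 in miR-26a and 634237 to 692961 in sponge cells. Among 8 myeloid markers 4 were tested, and their list summed to 3881 to 4963 in control, 4012 to 4839 in miR-26a and 3291 to 4771 in sponge cells, with Cd14 and Ly6g not well above background on any array. Most of this sum came from Itgam (log2 11.30 to 11.99). In sponge cells Csf1r had -0.69 against control (unadjusted p = 0.00747, adjusted p = 0.223 by limma), and 0.10 at its second tested probe. Itgam had -0.13 at its brightest probe and -0.51 at its second (adjusted p = 0.191 by limma), Elane -0.19 and Fcgr3 0.005. The part of these differences in the sponge results was not tested. Of 6 stromal markers none could be tested, and Col1a1, Col3a1, Cxcl12, Dcn and Pdgfrb were not well above background. Among 7 T and NK cell markers 3 were tested, with a summed signal of 1478 to 1491 in control, 1331 to 1497 in miR-26a and 1132 to 1282 in sponge cells. Of those 3, Cd4 (-0.32, unadjusted p = 0.00799) and Cd3e (-0.29, unadjusted p = 0.0401) were below control in sponge cells without passing the adjustment (adjusted p = 0.224 and 0.293 by limma), Klrb1c had -0.18, and their part in the sponge results was not tested. Of 6 plasmacytoid dendritic cell markers 4 were tested, and the list summed to 54287 to 66403 in control, 58537 to 65099 in miR-26a and 55434 to 68565 in sponge cells. Most of this sum came from Siglech (log2 15.58 to 15.92), so it says little about the other markers. Single markers did move with miR-26a against control. Dntt, the terminal transferase of B cell precursors, fell by 1.12, Fcgr3 by 0.51 and Cox6a2, a marker of plasmacytoid dendritic cells, by 2.18. The other tested members of these lists did not pass at their brightest probes. Among the dendritic cell markers Tcf4 had 0.22 (-0.27 at its second probe), Siglech 0.06 and Ly6d -0.13. Of the myeloid markers, Itgam had 0.06, Csf1r -0.03 and Elane -0.02. A second tested Itgam probe was lower, at -0.82 (adjusted p = 0.00712 by limma). The part of these markers in the results below was not tested. Probes for Blnk, which encodes SLP-65, and for Lat were well above background on all arrays. With miR-26a, the Blnk probe was lower than in control by 0.49 (adjusted p = 0.0273 by limma), and the Lat probe had -0.07. Whether these probes lie in the deleted parts of the genes is not given in the sources used here, so they do not check the genotype.

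Signal bright enough to test was found for a part of the list. All 4 nucleic acid sensors, 4 of 5 regulators, 5 of 6 genes of the ISG15, USP18, TRIM and PARP group and 5 of 6 interferon-inducible GTPases could be tested. Among the antiviral effectors, the proteins that act directly on viral RNA or particles, only 6 of 17 could be tested, namely Bst2, Eif2ak2, Ifi35, Ifit2, Isg20 and Xaf1. The probes of 8 effectors, Ifi44, Ifit1, Mx1, Mx2, Oas3, Oasl1, Oasl2 and Rsad2, were not well above background on any array of any group. The Ifit1 probe had log2 signals of 1.22 to 1.25 on the 6 arrays and that of Mx1 1.30 to 1.35. A further 6 genes, Irf7, Ifit3, Usp18, Oas1a, Oas2 and Gbp6, were well above background on 1 or more arrays but below the signal limit for testing. Irf7, the regulator that amplifies type I interferon production, had log2 signals of 5.16 and 5.44 in control, 5.13 and 5.43 in miR-26a and 4.78 and 5.20 in sponge cells. Its sponge array was below the control array of the same experiment both times, while the values of the groups overlapped across experiments. Without the signal limit, the sponge difference was -0.31 (unadjusted p = 0.0207, adjusted p = 0.52 by limma). Among the ligands, the probes of Ifnb1, Ifng, Ifna4 and Ifnk were not well above background on any array. The Ifna1 probe was well above background on all 6 arrays, at log2 signals of 4.84 to 5.46, and a probe of Ifna2 on 5, at 3.50 to 4.76 over the 6 arrays, both below the signal limit. A probe that stays dim leaves the transcript's level unknown.

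**Figure D1:**
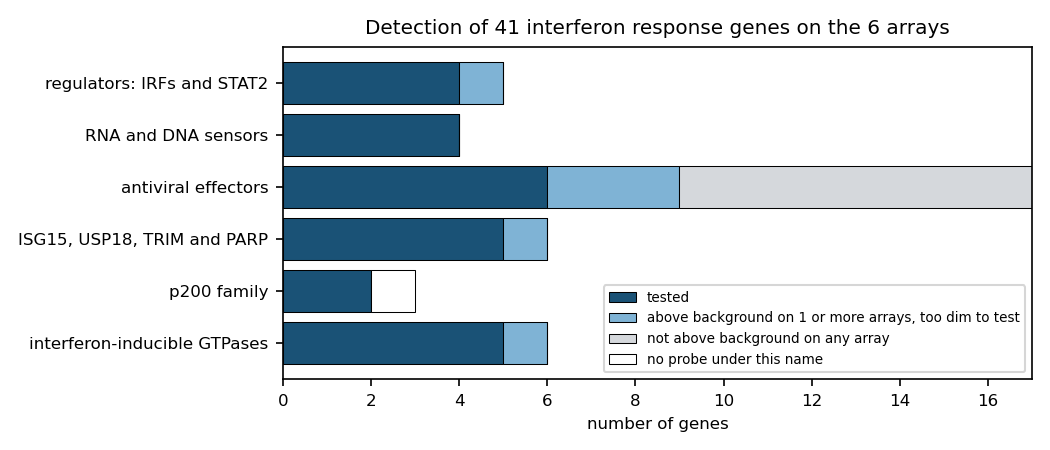
Number of interferon response genes in each role group by detection state over the 6 arrays, with the number of genes on the x axis. In the effector group, 8 of 17 genes were not above background on any array and 6 were tested.

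Irf1, the gene that heads the list, was bright in all groups, and no difference between them passed the test. Its brightest probe (chromosome 11, 53590746 to 53590805, mm9) gave log2 signals of 12.34 and 12.37 in control, 12.19 and 12.29 in miR-26a and 12.38 and 12.30 in sponge cells. Both miR-26a arrays were below both control arrays, and the sponge arrays overlapped the control arrays. The means were 12.36 ± 0.02 (SD, n = 2), 12.24 ± 0.07 and 12.34 ± 0.06 in the same order. In limma's fit the change with miR-26a was -0.12 (standard error 0.08, 95% interval -0.31 to 0.07, adjusted p = 0.377), and with the sponge it was -0.02 (95% interval -0.21 to 0.17, adjusted p = 0.922). The second Irf1 probe was not well above background on any array.

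The other regulators did not pass the test either. Irf2 gave a change of 0.00 with miR-26a (95% interval -0.23 to 0.24), with experiment 1 at -0.15 and experiment 2 at 0.15. Stat2, the partner of IRF9 in the type I interferon complex, had a change of -0.05 (95% interval -0.28 to 0.18) with miR-26a and of 0.04 (95% interval -0.19 to 0.27) with the sponge. Irf9 gave log2 signals of 9.48 and 9.69 in control, 9.61 and 9.68 in miR-26a and 9.76 and 9.83 in sponge cells. Both sponge arrays were above both control arrays, and the difference of 0.21 had an unadjusted p of 0.0317 and an adjusted p of 0.278 by limma.

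Compared with control, miR-26a changed 3 of the 26 tested interferon response genes at an adjusted p under 0.05 (limma, Benjamini-Hochberg adjustment over 20168 probes): Ifi203 and Ifi204 were lower and Ifih1 was higher. Ifih1 was below the signal limit on both control arrays and entered through the miR-26a and sponge arrays, so its call is a description, and when all 6 arrays had to pass the limit, 2 of 25 genes were called, Ifi203 and Ifi204. The 3 genes are 11.5% of the genes tested, beside 9.72% of all probes tested (5.12% lower and 4.60% higher). At an unadjusted p under 0.05, 4 genes were lower and 4 higher, 30.8% beside 27.3% of all probes (12.8% lower and 14.6% higher). Of the 26 genes, 14 were below 0 and 12 above, beside 53.2% of all tested probes above 0. The median log2 change of the 26 genes was -0.02, beside 0.01 over all tested probes. The median was between -0.09 and 0.08 when 1 array was left out. Counted by probe, 6 of the 33 tested probes of these genes passed (18.2%), 5 lower, all of Ifi203 and Ifi204, and 1 higher. The calls depended on the control arrays. Without control replicate 1 no member passed, and without control replicate 2 only Ifih1 passed. The fit without the experiment as a block called 0 of the 26.

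**Figure D2:**
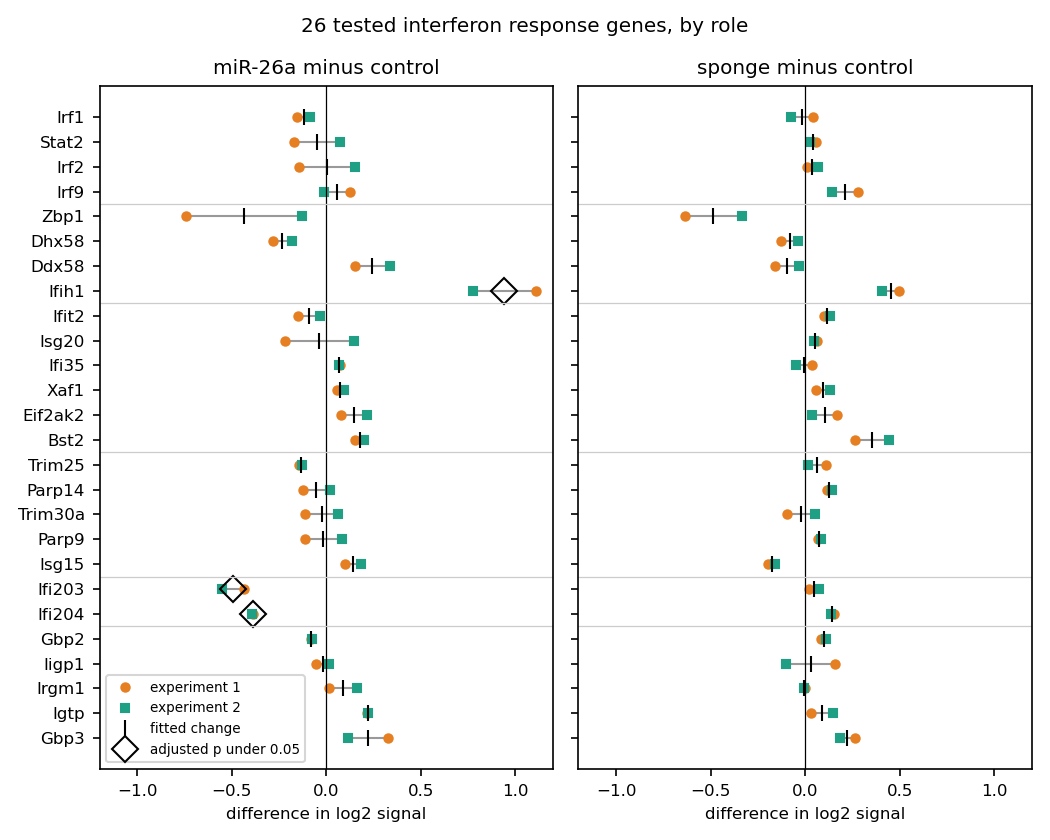
Difference in log2 signal between miR-26a and control (left) and between sponge and control (right) for the 26 tested genes in order of role, with a point for each experiment, a tick for the fitted change and a diamond where the adjusted p was under 0.05. Ifih1 stands at 0.94 and Ifi203 and Ifi204 at -0.49 and -0.39 with miR-26a, and no gene has a diamond in the sponge panel.

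Among the sensors, Ifih1 had the largest difference. It encodes MDA5, a cytosolic helicase that detects long double-stranded RNA. Its probe (chromosome 2, 62435507 to 62435566, mm9) gave log2 signals of 5.45 and 5.18 in control, 6.56 and 5.96 in miR-26a and 5.95 and 5.59 in sponge cells. In each experiment the order was control, sponge, miR-26a, and the miR-26a arrays lay above both control arrays, while the lower miR-26a value and the higher sponge value nearly met. The processed signal was below the limit of 50 in control, at 43.5 and 37.1, and above it on the other 4 arrays, so that the filter selected partly on the difference and the p values below describe a probe chosen in that way. The change with miR-26a was 0.94 (standard error 0.10, adjusted p = 0.00828), with 1.11 in experiment 1 and 0.77 in experiment 2. The sponge cells were higher than control by 0.45 as well (95% interval 0.21 to 0.70, unadjusted p = 0.00441), which did not pass the adjustment (adjusted p = 0.221), and these comparisons share the control arrays. The probe is dim, and with normexp background correction, a model of the local background, the change with miR-26a was 0.43. The second Ifih1 probe was not well above background.

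The other 3 sensors went in different directions. Ddx58, which encodes the RNA sensor RIG-I, had log2 signals of 9.55 and 9.44 in control, 9.70 and 9.78 in miR-26a and 9.39 and 9.41 in sponge cells. Its miR-26a arrays were above all others, with a change of 0.24 over control (adjusted p = 0.109). Dhx58, the gene of the related regulator LGP2, had a change of -0.23 (adjusted p = 0.0995), with both miR-26a arrays (6.95 and 7.02) below both control arrays (7.23 and 7.20). Zbp1, which senses left-handed nucleic acids, was measured at 6.97 and 6.78 in control, 6.23 and 6.66 in miR-26a and 6.33 and 6.45 in sponge cells. The control arrays of Zbp1 were above all others, and the differences of -0.43 for miR-26a (adjusted p = 0.128) and -0.49 for the sponge (adjusted p = 0.245) did not pass. The 2 control arrays enter both of these differences. Without miR-26a replicate 2, Zbp1 passed in miR-26a against control at -0.67 (adjusted p = 0.0315).

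The p200 genes fell. Proteins of this mouse family, of which AIM2 is a relative, carry a pyrin domain, a DNA-binding HIN domain or both, and several respond to interferon. The brightest Ifi203 probe (chromosome 1, 175850536 to 175850595, mm9) gave 12.80 and 12.79 in control, 12.37 and 12.24 in miR-26a and 12.83 and 12.86 in sponge cells. The miR-26a arrays were below all others, and the control and sponge arrays lay close together. The change with miR-26a was -0.49 (standard error 0.07, adjusted p = 0.0195), and 2 further tested probes of Ifi203 also passed, at -0.33 (adjusted p = 0.0427) and -0.43 (adjusted p = 0.035). Ifi204 (chromosome 1, 175677647 to 175677706, mm9) gave 11.22 and 11.30 in control, 10.83 and 10.91 in miR-26a and 11.37 and 11.43 in sponge cells. It again had its lowest values on the miR-26a arrays, with a change of -0.39 in each experiment (standard error 0.07, adjusted p = 0.0251). Its second probe gave -0.47 (adjusted p = 0.0467). No probe of Ifi203 or Ifi204 shared a run of 20 or more bases with a probe of another gene name, but the genes of this family are close relatives and cross-hybridization was not tested.

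**Figure D3:**
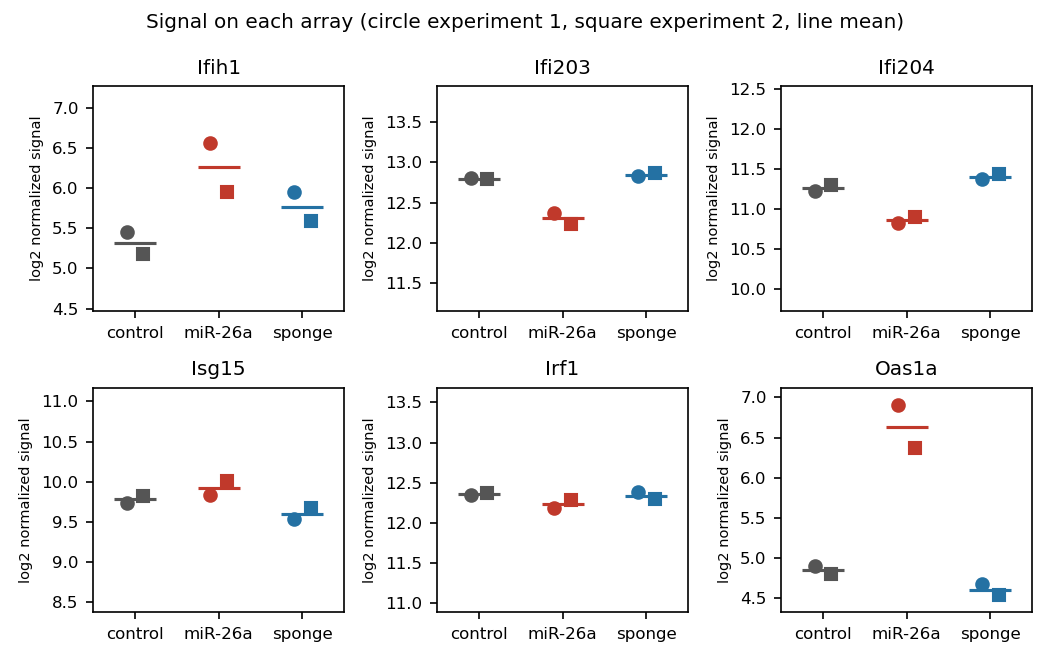
Log2 normalized signal of 6 genes on each array, with a circle for experiment 1, a square for experiment 2 and a line at the mean of the group, on y axes of equal span. Both miR-26a arrays lie below the other arrays for Ifi203 and Ifi204 and above them for Ifih1 and Oas1a, whereas Irf1 differs by about 0.1 between group means.

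Since Ifi203 and Ifi204 are neighbours on chromosome 1, the other named probes of this gene cluster, between those of Aim2 and Ifi202b, were examined as well. This set was chosen after the values of Ifi203 and Ifi204 were seen, and its counts are a description. Of 27 probes for 14 gene names, 16 probes for 7 names were tested, and 14 of the 16 were lower in miR-26a cells after adjustment (5.12% of all probes were) and none was higher. The signal of all 16 was below that of control in experiment 1 and again in experiment 2. The largest differences were those of the 3 Pyhin1 probes, at -1.06, -0.94 and -1.04, and 3 of the 4 Pydc3 probes passed, at -0.61, -0.88 and -0.60. The Pydc3 probe at -0.88 was below the signal limit on both miR-26a arrays (log2 5.16 and 4.82) and entered through the control and sponge arrays, so its call is a description. When all 6 arrays had to pass the limit, which leaves this probe out, the number called in the cluster was again 14. The remaining Pydc3 probe, at -0.09 (adjusted p = 0.522), and the Mndal probe, at -0.32 (adjusted p = 0.0521), did not pass. Both Gm4955 probes were lower at -0.64, as was that of Gm16340 at -0.42. In sponge cells none of the 16 passed, with differences of -0.32 to 0.17. Aim2, AI607873, Gm7897, Mnda and Ifi202b were not well above background on any array. Without control replicate 1, 3 of the 16 probes passed against control, without control replicate 2, 4 did, without either miR-26a array, 9, and without either sponge array, 8.

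**Figure D4:**
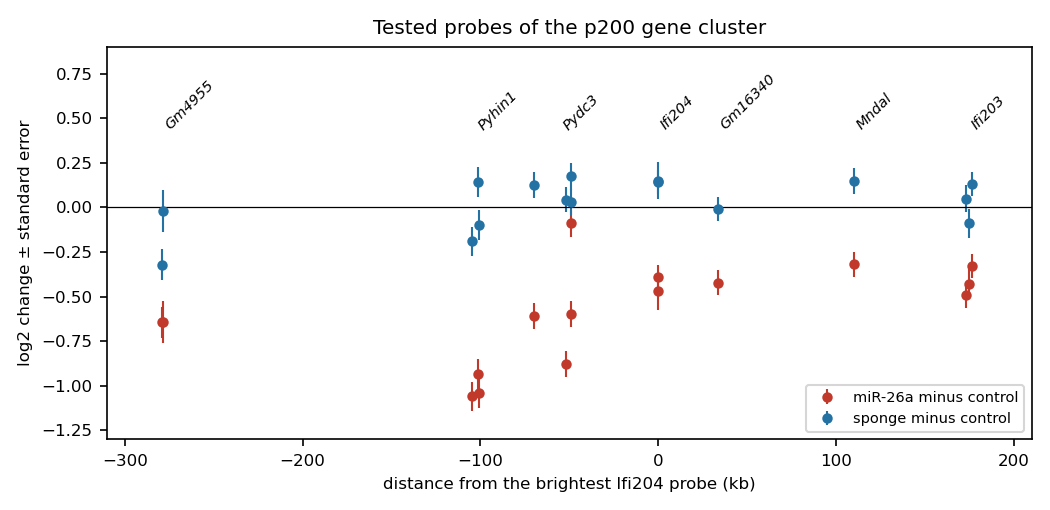
Log2 change with its standard error of the 16 tested probes of the p200 cluster, against the distance of each probe from the brightest Ifi204 probe in kb, with miR-26a minus control in red and sponge minus control in blue. All red points lie below 0, between -1.06 and -0.09, and the blue points lie between -0.32 and 0.17.

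Of the antiviral effectors, Oas1a had the largest difference, at a probe below the signal limit for testing. It encodes a 2′,5′-oligoadenylate synthetase, which activates RNase L in the presence of double-stranded RNA. The brighter of its probes (chromosome 5, 121346735 to 121346794, mm9) was well above background on all 6 arrays, with log2 signals of 4.90 and 4.80 in control, 6.91 and 6.37 in miR-26a and 4.67 and 4.54 in sponge cells. The miR-26a arrays were far above the others, and the group means were 4.85 ± 0.07, 6.64 ± 0.38 and 4.61 ± 0.09 (SD, n = 2 each). The probe passed the signal limit only on the miR-26a arrays, so that a signal limit which admits it selects on the difference. It is given as a description. Without the signal limit, the difference between miR-26a and control was 1.79 and did not pass the adjustment (adjusted p = 0.15 by limma). The second Oas1a probe gave 4.22 and 4.65 in control, 5.23 and 4.53 in miR-26a and 3.97 and 4.28 in sponge cells, with overlap between control and miR-26a. Of the neighbours in the Oas1 cluster, which were looked at after the Oas1a values were seen, none of the 7 tested probes passed against control, and the 3 probes of Oas1b, one of them at 14.10 in control, differed from control by -0.06 to 0.04. The Oas1c probe had differences in miR-26a cells of -0.30 against control (adjusted p = 0.0779) and of -0.44 against the sponge (adjusted p = 0.0234).

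The 6 effectors that were tested did not pass, with log2 changes of -0.09 (Ifit2) to 0.18 (Bst2) for miR-26a and a median of 0.07. Bst2, the gene of tetherin, which holds budding virions at the membrane, gave 9.38 and 9.04 in control, 9.53 and 9.24 in miR-26a and 9.64 and 9.49 in sponge cells. Its sponge arrays were above both control arrays, by 0.35 on average (unadjusted p = 0.00432, adjusted p = 0.221).

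The GTPases, a group with members that attack the membranes around intracellular pathogens, likewise did not pass. Gbp3 gave 10.67 and 10.46 in control, 11.00 and 10.58 in miR-26a and 10.93 and 10.65 in sponge cells. Within each experiment both constructs were above control, by 0.22 on average for miR-26a (adjusted p = 0.151) and 0.22 for the sponge (adjusted p = 0.283). Igtp had the same value of 9.74 on both control arrays and 9.96 on both miR-26a arrays, a difference of 0.22 (adjusted p = 0.119). Irgm1 had a change of 0.09 (adjusted p = 0.513) at its brightest probe and of -0.06 (adjusted p = 0.668 by limma) at its second.

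The ubiquitin-like modifier Isg15, which is conjugated to proteins during the antiviral response, had its lowest signals on the sponge arrays at both probes. Its brighter probe gave 9.73 and 9.83 in control, 9.83 and 10.01 in miR-26a and 9.54 and 9.67 in sponge cells. The sponge difference from control was -0.18 (unadjusted p = 0.0416, adjusted p = 0.297). The second probe gave 6.11 and 6.07 in control, 6.07 and 6.08 in miR-26a and 5.59 and 5.75 in sponge cells, a difference of -0.42 for the sponge (unadjusted p = 0.00238, adjusted p = 0.219) and of -0.01 for miR-26a. The brighter Isg15 probe shares a run of 35 bases with a probe named Gm9706, so it may also report that transcript. Parp14, Trim25 and Trim30a changed by -0.05, -0.14 and -0.02 with miR-26a, and none passed.

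In sponge cells as compared with control, 0 of the 26 genes passed the adjustment (limma), beside 0.00992% of all probes tested (0% lower and 0.00992% higher), and without the block the number was also 0. At an unadjusted p under 0.05, 6 genes were counted (4 higher, Bst2, Gbp3, Ifih1 and Irf9, and 2 lower, Isg15 and Zbp1), 23.1% beside 16.0% of all probes (8.34% lower and 7.65% higher). Of the 26 genes, 18 were above 0 and 8 below, beside 52.1% of all tested probes above 0. The median change was 0.06, beside 0.01 over all probes. That median was 0.01 when sponge replicate 1 was left out and 0.11 without control replicate 1.

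Setting miR-26a directly against the sponge, which uses the same arrays and is not an independent comparison, 5 of the 26 genes passed (19.2%, beside 16.8% of all probes, 8.55% lower and 8.23% higher). Ifi203 (-0.54, adjusted p = 0.0115) and Ifi204 (-0.53, adjusted p = 0.00863) were lower in miR-26a cells. Ifih1 (0.49, adjusted p = 0.0285), Ddx58 (0.34, adjusted p = 0.0372) and Isg15 (0.32, adjusted p = 0.0326) were higher, and the second Isg15 probe passed as well, at 0.40 (adjusted p = 0.0274). Ifit2 (-0.21), Gbp2 (-0.18) and Trim25 (-0.20) were counted at an unadjusted p under 0.05 only, where the 8 members made up 30.8% beside 34.4% of all probes (15.9% lower and 18.5% higher). The median over the 26 genes was -0.07, beside 0.02 over all probes, and it was between -0.16 and 0.02 when 1 array was left out. Without either of the sponge arrays none of the 26 passed.

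The rest of the pathway was taken from a wider list of 69 interferon-related genes. This list was chosen with earlier results of these data known, so its shares are a description. Of the 69 genes, 47 were tested. Of those 47, 7 were lower and 2 higher with miR-26a (19.1%, beside the 9.72% of all probes), and none passed in the sponge comparison. Their median change with miR-26a was 0.01. Without control replicate 1 the number that passed was 2, without control replicate 2 it was 3, and without miR-26a replicate 1 it was 5.

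Several genes of the receptors and of the feedback on them were lower. Ifngr2, the signalling chain of the interferon gamma receptor, gave 11.75 on both control arrays, 11.28 and 11.30 in miR-26a and 11.62 and 11.75 in sponge cells. The miR-26a arrays were the lowest, at -0.46 against control (adjusted p = 0.0204). Ifngr1, the ligand-binding chain, had the opposite sign, with 0.25 (adjusted p = 0.127). Of the type I receptor chains, Ifnar1 had a change of -0.33 (adjusted p = 0.0619) at its brightest probe and of -0.08 (adjusted p = 0.78) at another, and Ifnar2 of -0.07. Socs3, an inhibitor of cytokine receptor signalling, fell by 0.69 (adjusted p = 0.0089), whereas Socs1 had -0.38 (adjusted p = 0.0553).

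Among the other regulators, Irf4, a transcription factor of B cell differentiation, had the largest change of the wider list. Its log2 signals were 11.44 and 11.69 in control, 10.24 and 10.51 in miR-26a and 11.19 and 11.69 in sponge cells. Both miR-26a arrays were below all others, by 1.19 against control (adjusted p = 0.00468). Irf5 fell by 0.39 (adjusted p = 0.0396), whereas Irf3, at 0.01, and Irf8, at 0.12, did not pass.

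In the signalling below the sensors, Tmem173, which encodes the cyclic dinucleotide receptor STING, gave 12.19 and 12.18 in control, 11.31 and 11.27 in miR-26a and 12.40 and 12.36 in sponge cells. The miR-26a arrays were clearly the lowest and the sponge arrays the highest, with differences from control of -0.89 (adjusted p = 0.00463) and 0.20 (adjusted p = 0.268). Traf3, an adaptor in the induction of type I interferon, rose by 0.57 (adjusted p = 0.015). Mavs, the adaptor through which MDA5 and RIG-I signal, had -0.08 (adjusted p = 0.555), and Tbk1, the kinase that activates IRF3, 0.11 (adjusted p = 0.383). Of the remaining induced genes of the wider list, Ifi27l2a fell by 0.79 (adjusted p = 0.03) and Gbp4 by 0.48 (adjusted p = 0.0252), and Trim34a rose by 0.35 (adjusted p = 0.0438). For Pml and Herc6 the probes disagreed. A second Pml probe passed at -0.34 (adjusted p = 0.0371), while the brightest, at -0.24, did not, and the 2 Herc6 probes had opposite signs, at 0.25 and -0.37. Against the sponge arrays, 10 of the 47 were lower with miR-26a and 6 higher (34.0%, beside 16.8% of all probes, 8.55% lower and 8.23% higher). This share is again a description, as the list was chosen with earlier results known. Without the experiment as a block 7 passed, and with no filter on dim probes none did. Those that passed in this comparison and not against control included Ifnar1 (-0.49), Socs1 (-0.46) and Gbp9 (-0.44) among the lower. Tlr7 (0.52), Myd88 (0.36) and Irgm2 (0.35) were among the higher. Adjusted p values by limma were between 0.0172 and 0.026 for these 6 genes. The Ifnar1 probes disagreed, as another tested probe had -0.03 against the sponge (adjusted p = 0.894 by limma). A further Ifnar1 probe, below the signal limit, had 0.27. Of the 16 genes, 3 passed without sponge replicate 1 and 3 without sponge replicate 2.

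**Figure D5:**
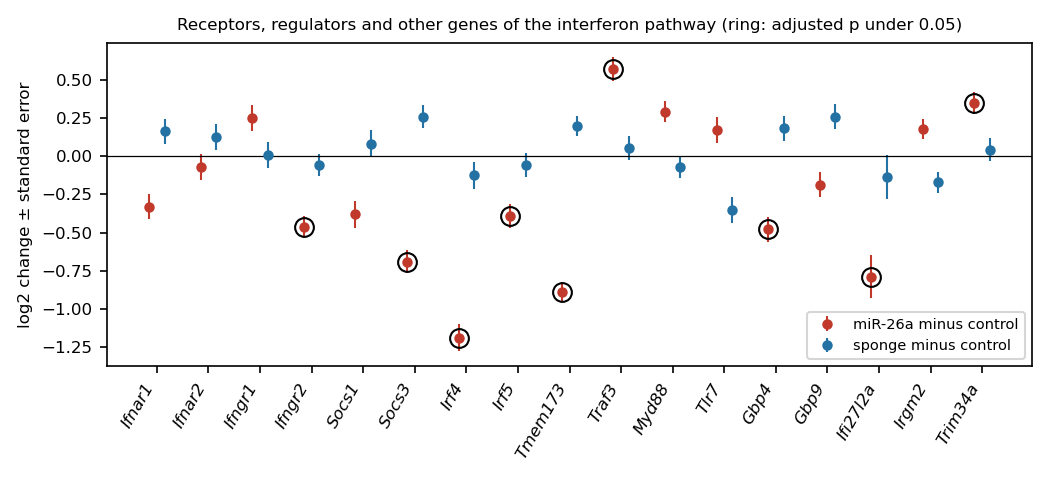
Log2 change against control, with its standard error, of 17 genes of the wider list: the interferon receptor chains and genes that passed in miR-26a against control or against sponge, with miR-26a in red, sponge in blue and a ring where the adjusted p was under 0.05. Of these 17 genes, 9 carry a ring for miR-26a, from Irf4 at -1.19 to Traf3 at 0.57, and none for the sponge.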

How the data were processed

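Total RNA of 6 samples was measured on Agilent mouse arrays with 1 colour. For each array, the authors deposited scanner output with the processed intensity of every spot made by Agilent Feature Extraction (10.7.1.1 per the labels, 10.7.3.1 per the file headers), and a table of quantile-normalized intensity on a linear scale. The array design supplied gene names and coordinates (mm9). Groups were taken from the labels, and control sample titles refer to other sample records as well. Here, control spots and flagged spots were left out, processed intensities were quantile-normalized and log2-transformed, and spots of a probe were averaged. Probes well above background on at least 1 array with processed signals exceeding 50 on 4 or more arrays entered the tests (20168 of 55681). The study's methods give the number of arrays unclearly.

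limma (3.58.1, under R 4.3.3) used all 6 arrays and had a block for the experiment, as the methods normalize to the control of each experiment, followed by Benjamini-Hochberg adjustment. Arrays with the same replicate number deviated together from their group means (correlations of 0.379, 0.588 and 0.454). The brightest tested probe stands for a gene. Named were Irf1, Irf2, Irf7, Irf9, Stat2, the members that passed, the 5 largest falls and rises per comparison and, of the wider list, genes that passed and the receptor chains. Some genes that this rule covers are not reported here. Other genes, such as Oas1a and the p200 neighbours, were chosen after their values were seen. Members and lists were chosen with earlier results of these data known. The fit was tested on simulated data. Alternatives were the fit without the block, 75th percentile scaling, normexp with an offset of 50, the authors' table, other filters, array weights, averaged probes, a t-test and leaving out each array. Tables and plots were made in Python 3.11.15 with numpy 2.4.6, pandas 2.3.3 and matplotlib 3.10.9.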

Additional observations from a re-analysis of the deposited data

How the results depend on the processing

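With 2 arrays per group the number of arrays limits every value, and calls were lost more readily than directions. For the interferon response genes that passed in miR-26a against control (3) and against the sponge (5), the numbers were 0 and 2 without the replicate block, 0 and 0 with no filter on dim probes, with every probe that was above background anywhere, and with the unpaired t-test. Against the sponge, normexp and array weights each gave 3. Leaving out 1 array at a time gave 0 to 2 against control and 0 to 3 against the sponge. With all probes in the fit, 0 of 55681 probes passed in any comparison. Ifi203 (-0.56 to -0.42) and Ifi204 (-0.43 to -0.36) kept their sign in miR-26a against control under all 16 alternatives that gave a fitted change, and Ifih1 (0.43 to 1.09) under 15. Their adjusted p was under 0.05 in 10, 7 and 11 of these, with ranges of 0.00542 to 0.26, 0.0105 to 0.252 and 0.00363 to 0.239. Ifih1 was not tested when all 6 arrays had to pass the signal limit. Of the named changes of the interferon response genes, 18 values turned sign, none of them in a change that had passed. In the sponge comparison Trim30a was 0.0152 with 75th percentile scaling, 0.00794 with normexp, 0.0566 without control replicate 1 and 0.00564 without sponge replicate 1 (range -0.103 to 0.0566), and Irf1 was 0.047 with 75th percentile scaling and 0.0579 without sponge replicate 2 (range -0.0939 to 0.0579). Leaving out 1 array also turned other regulators. Irf2 ranged from -0.133 to 0.139 in miR-26a against control, from -0.0511 to 0.128 in sponge against control and from -0.171 to 0.101 in miR-26a against the sponge. Irf9 ranged from -0.014 to 0.126 in miR-26a against control. Stat2 ranged from -0.177 to 0.0801, from -0.0361 to 0.116 and from -0.217 to 0.0401 in the order given for Irf2. The changes of single genes of the wider list were not recomputed under the alternatives. The median change in the sponge comparison was 0.10 with 75th percentile scaling, 0.0566 with normexp, 0.0606 with the authors' values, 0.0529 with the stricter filter and 0.0577 with averaged probes, and 0.00922 to 0.105 with an array left out. Of the 16 probes of the p200 cluster, 3 passed in miR-26a against control without the block and 0 with no filter, with all probes above background or with the t-test. Of the wider list, 2 genes passed in that comparison without the block. With the looser limit of 2 arrays, chosen after seeing the data, Oas1a also entered the fit, at 1.79. With every probe that was above background anywhere, Oas1a did not pass in miR-26a against control (adjusted p = 0.15 by limma). The cause of these changes was not tested. Leaving out 1 array lowers the number of arrays and also removes a particular array, and these were not separated.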
